A study of Homo sapiens with 24 samples.

Results

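Gelsolin and its relatives are proteins that cut, cap and bundle actin filaments, and myopalladin and palladin are immunoglobulin-domain scaffold proteins that hold actin-binding proteins together. Their mRNAs were followed in MIA PaCa-2 cells, an established human pancreatic carcinoma line. The members were taken from the matrix by gene symbol, with earlier results of these data known: GSN, SCIN, VIL1, AVIL, CAPG, SVIL and FLII of the gelsolin family, and MYPN and PALLD. They are 9 of the 60675 Ensembl gene identifiers in the count matrix, and their positions are given in GRCh38 from GENCODE 44. Of the 9, 7 had enough counts for the tests, and SCIN and VIL1 did not.

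In the gelsolin family a repeated domain binds actin, and in gelsolin itself calcium opens the protein so that it cuts a filament and stays on its fast-growing end. Scinderin, villin and advillin share this plan, CapG caps filaments without cutting them, and supervillin and flightless-1 carry further domains that tie actin to the membrane or to signalling proteins. Palladin sits in stress fibres and focal adhesions, and myopalladin is best known from the sarcomeres of striated muscle.

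The study used 2 derivatives of the line, each carrying a Tet-On vector. The C/EBPδ-inducible cells were a pool of 3 clones with the CEBPD cDNA and an mVenus tag, and the CTRL cells carried the vector without the cDNA and with mCherry. Both were collected after 0, 8, 24 and 48 h with doxycycline at 2 µg/mL, 3 wells each, which gives 8 groups and 24 libraries. For the 0 h wells the labels list doxycycline too, whereas the methods describe these cells as untreated. A difference between lines at 0 h cannot be told apart from differences between the derived clones, and within a line hours of doxycycline cannot be told apart from hours of culture. The interaction term, the change from 0 h in one line minus that in the other, takes off both the difference at 0 h and what the same hours did in CTRL cells.

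The libraries held 12731237 to 22598595 counts. The library with the fewest, C/EBPδ-inducible replicate 3 at 8 h, stood apart from its group, with a chi-square per gene of 11 and 11.1 against replicates 1 and 2, which differed from each other by 2.22. CTRL replicates 1 and 3 at 8 h differed by 14.9, the largest value of any pair, and lay at 5.79 and 5.37 from replicate 2. The gene that doxycycline was to induce behaved by its label: CEBPD lay at 1.32 to 4.42 CPM (counts scaled to equal library size, after TMM scaling, which corrects for differences in composition between libraries) in the 12 CTRL libraries. It lay at 18.9, 23.4 and 22.3 CPM in the C/EBPδ-inducible libraries at 0 h, and at 199.7 to 321 CPM after doxycycline, so the line carried more CEBPD mRNA than CTRL cells before induction too. The counts do not separate the cDNA from the endogenous gene. Of the 6 epithelial markers, KRT8, KRT18 and KRT19 carried nearly all of the signal, and the list summed to 2066 to 2950 CPM in CTRL libraries and to 116 to 208 CPM in C/EBPδ-inducible libraries. The other 3 were low in both lines: the medians over CTRL and C/EBPδ-inducible libraries were 0.445 and 1.37 CPM for KRT7, 1.06 and 2.196 CPM for CDH1, and 1.15 and 0.385 CPM for EPCAM. The summed level of the 7 striated muscle markers was at most 0.999 CPM, with ACTN2, MYH7, MYH2 and CKM at 0 to 2 counts in every library, so that MYPN was measured in cells with these muscle mRNAs at or near 0. The mesenchymal marker VIM was high in all 24 libraries, at 5348 to 7001 CPM, and of the leukocyte genes PTPRC was at 0 or 1 count, CD3E was at 0 counts and CD14 had 2 to 27 counts. The 5 fibroblast markers summed to 449 to 689 CPM in CTRL libraries and to 136 to 255 CPM in C/EBPδ-inducible libraries, nearly all of it COL1A2. The part of these differences between the lines in the values below was not tested.

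The promoters of GSN and MYPN are shown because the change of these 2 members from the start differed between the lines at every later time. The part of doxycycline, as against hours of culture, in this difference was not tested. Each line gives the 250 bases before a RefSeq start site (GRCh38.p14, + strand), with CCAAT in capitals. For GSN, which has 6 listed starts, the one holding this motif is shown. MYPN has 1 listed start, at base 68109488 of chromosome 10. It lies inside the annotated gene, which begins at base 68087897, so a start further upstream is not covered. The counts do not tell which start of either gene was used.

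GSN, chr9:121286299-121286548: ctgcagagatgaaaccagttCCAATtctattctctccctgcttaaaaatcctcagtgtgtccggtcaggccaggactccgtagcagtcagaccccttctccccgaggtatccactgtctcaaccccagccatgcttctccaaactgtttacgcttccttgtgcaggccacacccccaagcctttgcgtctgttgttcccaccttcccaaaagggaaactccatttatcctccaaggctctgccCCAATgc

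MYPN, chr10:68109238-68109487: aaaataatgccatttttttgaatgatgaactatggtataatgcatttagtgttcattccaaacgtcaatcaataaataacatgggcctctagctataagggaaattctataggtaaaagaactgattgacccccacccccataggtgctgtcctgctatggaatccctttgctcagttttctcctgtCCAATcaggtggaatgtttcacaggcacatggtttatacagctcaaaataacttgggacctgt

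The MYPN window held CCAAT at bases -63 to -59 from the start, and the GSN window held it at -230 to -226 and at -7 to -3. CCAAT, searched on both strands, was present in 32.0% of the 34943 windows of the same length. Among the members it was in 1 of 6 windows of GSN, 1 of 4 of CAPG and the 1 window each of SCIN, AVIL and MYPN. It was in 0 windows of SVIL, FLII and PALLD, so the motif was not particular to GSN and MYPN. The letters TTGCNNAA, a core that C/EBP proteins are known to bind, were in none of the 21 windows listed for the members and in 9.06% of all windows, and the search for them covered both strands. VIL1 had no entry in the promoter table.

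**Figure D1:**
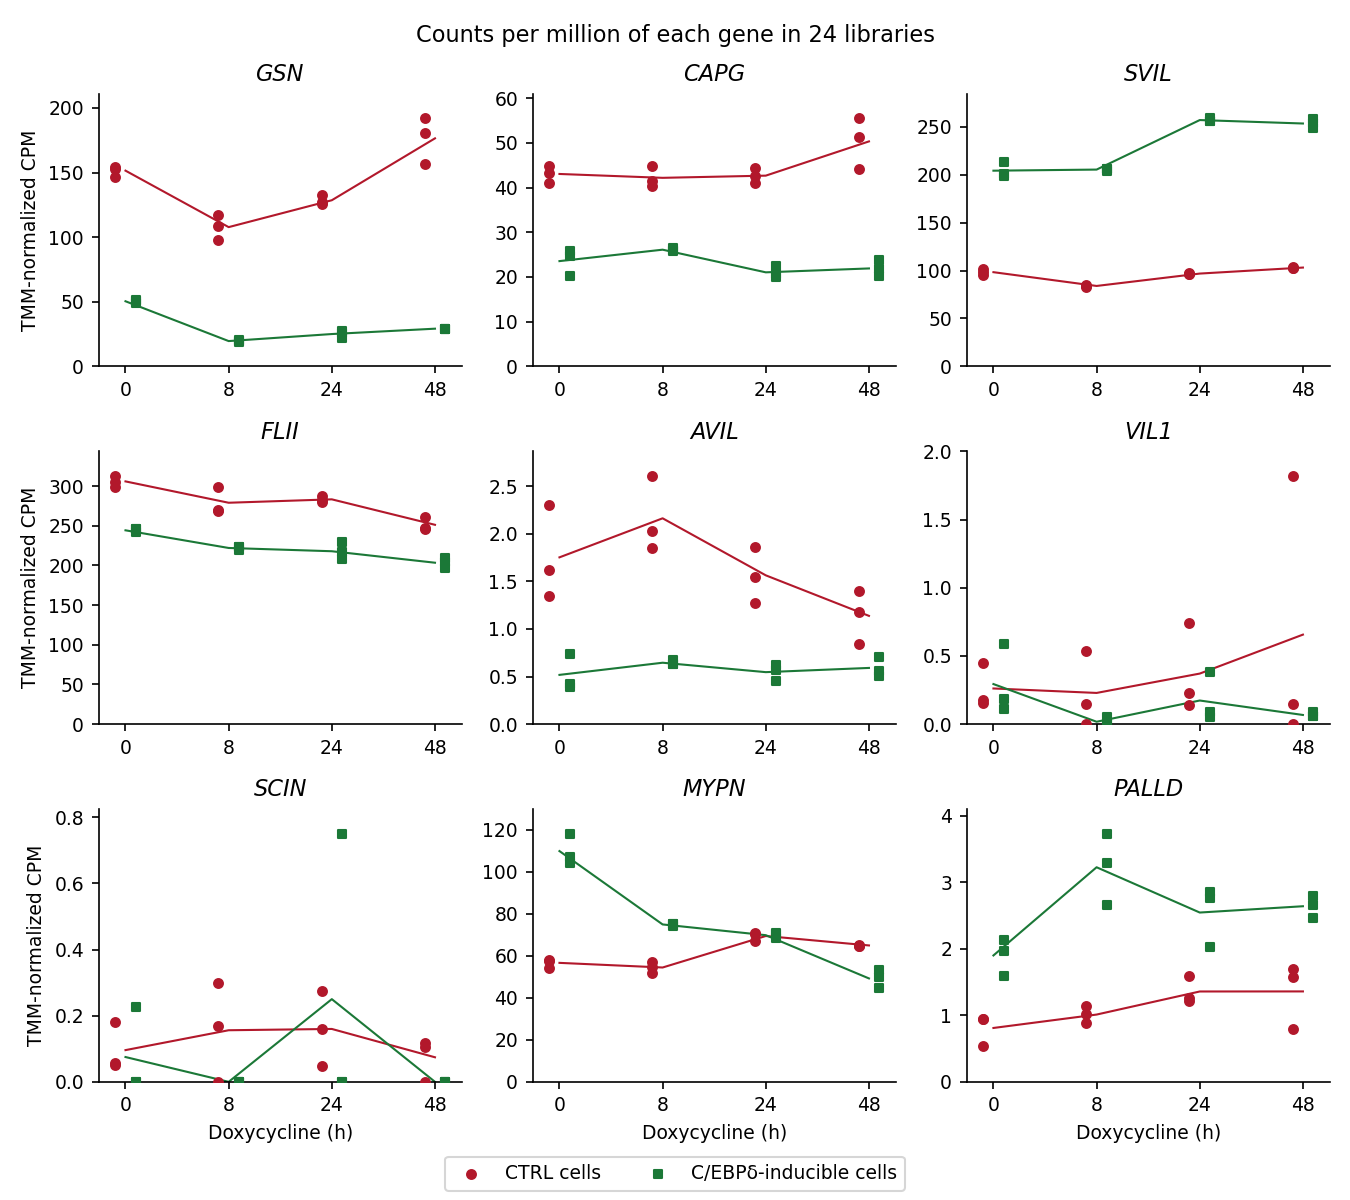
Level of the 9 members in every library (TMM-normalized CPM, linear axis from 0 in each panel) against hours of doxycycline, with circles for CTRL and squares for C/EBPδ-inducible cells, 3 libraries a group, and lines through the group means. GSN and CAPG ran lower and SVIL ran higher in C/EBPδ-inducible cells at all 4 times, and the 2 lines of MYPN crossed.

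To compare levels between genes, CPM were divided by the kilobases of merged exons. FLII was the most abundant member in every group, at 48.5 ± 1.06 CPM per kilobase (SD, n = 3) in CTRL cells and 38.7 ± 0.311 in C/EBPδ-inducible cells at 0 h. Below it the order differed between the lines. In CTRL cells at 0 h CAPG (17.8 ± 0.815), GSN (13.7 ± 0.363), SVIL (7.84 ± 0.222) and MYPN (6.68 ± 0.230) followed, and no 2 neighbours among these overlapped. In C/EBPδ-inducible cells at 0 h the order was SVIL (16.3 ± 0.626), MYPN (12.95 ± 0.857), CAPG (9.74 ± 1.21) and GSN (4.56 ± 0.0885), again with no overlap between neighbours. GSN was the third member in all 4 CTRL groups and the fifth in all 4 C/EBPδ-inducible groups. At 0 h AVIL and PALLD stood far below, at 0.296 and 0.0800 CPM per kilobase in CTRL cells and 0.0874 and 0.188 in C/EBPδ-inducible cells. PALLD in CTRL cells and AVIL in C/EBPδ-inducible cells overlapped with VIL1 in their libraries at 0 h. The rank of every member was the same when the longest transcript replaced the merged exons.

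The first question was how the lines differed at each time. At 0 h all 7 tested members passed the test, as did 43.9% of all genes tested. The C/EBPδ-inducible cells had more mRNA of 3 members (20.0% of all genes) and less of 4 (23.9%). At 8 h 7 members passed (31.8% of all genes), 3 of them higher (14.3%) and 4 lower (17.4%). At 24 h 6 passed (46.9%), 2 higher (21.5%) and 4 lower (25.3%), and at 48 h 6 passed (38.3%), 2 higher (17.6%) and 4 lower (20.7%). With so many genes different between the lines, a passed test by itself is common, and the sizes carry more than the counts. All tests here were edgeR quasi-likelihood tests with Benjamini-Hochberg adjustment over all genes, two-sided, with a threshold of 0.01 on the adjusted p.

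GSN (ENSG00000148180, chr9:121207794-121332843, + strand), the calcium-activated cutter and capper of filaments, had the largest difference between lines of the 7 tested members at 8, 24 and 48 h. In CTRL cells it lay at 154, 153 and 147 CPM at 0 h, 117, 109 and 97.5 at 8 h, 125, 128 and 133 at 24 h, and 192, 157 and 181 at 48 h. In C/EBPδ-inducible cells it lay at 51.4, 49.4 and 50.4 CPM at 0 h, 20.2, 19.6 and 18.9 at 8 h, 25.5, 22.4 and 27.3 at 24 h, and 29.1, 29.2 and 29.3 at 48 h. No C/EBPδ-inducible library reached the lowest CTRL library. GSN was 3.03-fold lower at 0 h (log2 fold change -1.60 ± 0.037 SE, adjusted p = 1.44e-17), 5.50-fold lower at 8 h (-2.46 ± 0.080, adjusted p = 5.9e-10), 5.15-fold lower at 24 h (-2.36 ± 0.052, adjusted p = 8.24e-23) and 6.06-fold lower at 48 h (-2.60 ± 0.073, adjusted p = 3.51e-12). In bulk libraries a lower level can be fewer cells with the mRNA or less mRNA per cell, and these cannot be told apart. An antisense gene, GSN-AS1, shares 2.52% of the exon bases of GSN on the other strand and had 0 to 5 counts.

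CAPG (ENSG00000042493, chr2:85394753-85418432, - strand), which caps filament ends without cutting, was lower in C/EBPδ-inducible cells too. CTRL libraries lay at 44.9, 43.3 and 41.0 CPM at 0 h, 44.8, 41.4 and 40.4 at 8 h, 41.0, 42.6 and 44.4 at 24 h, and 55.5, 44.1 and 51.4 at 48 h. C/EBPδ-inducible libraries lay at 20.2, 25.8 and 24.6 CPM at 0 h, 26.5, 25.8 and 26.1 at 8 h, 22.4, 20.6 and 20.1 at 24 h, and 21.7, 23.8 and 20.2 at 48 h. The lines did not overlap at any time. The log2 fold changes were -0.88 ± 0.071 at 0 h, -0.70 ± 0.071 at 8 h, -1.03 ± 0.059 at 24 h and -1.20 ± 0.090 at 48 h, with adjusted p from 7.01e-14 to 1.15e-05.

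FLII (ENSG00000177731, chr17:18244815-18258738, - strand), flightless-1, which joins gelsolin repeats to leucine-rich repeats, differed least of the members that were lower. At 0 h it lay at 299, 306 and 313 CPM in CTRL libraries and at 245, 245 and 242 CPM in C/EBPδ-inducible libraries. At 48 h the values were 261, 247 and 246 CPM against 209, 197 and 204 CPM. The groups did not overlap, and the difference was of nearly 1 size throughout, between -0.31 ± 0.045 at 48 h (adjusted p = 7.47e-05) and -0.38 ± 0.034 at 24 h (adjusted p = 4.7e-10) on the log2 scale.

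AVIL (ENSG00000135407, chr12:57797376-57818734, - strand), advillin, a villin relative known from sensory neurons, was scarce, with 7 to 53 counts a library. At 0 h it lay at 1.34, 1.62 and 2.30 CPM in CTRL libraries against 0.426, 0.732 and 0.394 CPM in C/EBPδ-inducible libraries. It was lower in C/EBPδ-inducible cells at 0 h (log2 fold change -1.73 ± 0.32), 8 h (-1.74 ± 0.26) and 24 h (-1.51 ± 0.30), with adjusted p from 9.7e-05 to 0.000193. At 48 h the CTRL libraries at 1.40, 1.17 and 0.843 CPM lay above the C/EBPδ-inducible libraries at 0.509, 0.562 and 0.700 CPM, but the difference did not pass (-0.95, 95% interval -1.61 to -0.29, adjusted p = 0.0198), except in the model of all 24 libraries (adjusted p = 0.00934). TSFM, with 306 to 684 counts, shares 5.12% of the exon bases of AVIL on the other strand, and the strand setting of the counting is not given in the sources used here.

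SVIL (ENSG00000197321, chr10:29457338-29736959, - strand), supervillin, which ties actin and myosin to the membrane, was higher in C/EBPδ-inducible cells. The CTRL libraries lay at 95.6, 101 and 98.1 CPM at 0 h, 82.8, 84.2 and 84.8 at 8 h, 96.5, 96.4 and 97.6 at 24 h, and 103, 104 and 103 at 48 h. The C/EBPδ-inducible libraries lay at 213, 201 and 199 CPM at 0 h, 206, 204 and 206 at 8 h, 256, 259 and 256 at 24 h, and 254, 258 and 248 at 48 h. Every C/EBPδ-inducible library was above every CTRL library. The gene was 2.06-fold higher at 0 h (log2 fold change 1.05 ± 0.038, adjusted p = 1.28e-14), 2.44-fold at 8 h (1.29 ± 0.048, adjusted p = 2.06e-09), 2.64-fold at 24 h (1.40 ± 0.034, adjusted p = 6.28e-22) and 2.45-fold at 48 h (1.30 ± 0.044, adjusted p = 2.37e-11). SVIL-AS1 shares 7.95% of the exon bases of SVIL on the other strand, and its identifier is absent from the count matrix.

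MYPN (ENSG00000138347, chr10:68087897-68212017, + strand), myopalladin, went from higher to lower. Its CTRL libraries lay at 54.4, 57.3 and 58.1 CPM at 0 h, 56.9, 51.7 and 54.6 at 8 h, 71.0, 66.9 and 70.2 at 24 h, and 65.2, 64.8 and 64.7 at 48 h. Its C/EBPδ-inducible libraries lay at 104, 107 and 118 CPM at 0 h, 75.3, 74.1 and 75.3 at 8 h, 70.8, 70.1 and 68.4 at 24 h, and 53.0, 44.6 and 49.97 at 48 h. The C/EBPδ-inducible libraries were thus all above the CTRL libraries at 0 and 8 h, among them at 24 h and all below them at 48 h. MYPN was 1.93-fold higher at 0 h (log2 fold change 0.95 ± 0.047, adjusted p = 2.09e-12), 1.37-fold higher at 8 h (0.46 ± 0.059, adjusted p = 7.02e-05) and 1.32-fold lower at 48 h (-0.40 ± 0.068, adjusted p = 0.000213). At 24 h the difference was 0.0033, with a 95% interval of -0.079 to 0.086 and an adjusted p of 0.951.

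PALLD (ENSG00000129116, chr4:168497052-168928457, + strand), palladin, was low in these cells, with 9 to 71 counts a library. It lay at 0.952, 0.538 and 0.940 CPM in CTRL libraries and at 1.60, 1.97 and 2.14 CPM in C/EBPδ-inducible libraries at 0 h, and at 0.886, 1.14 and 1.01 CPM against 3.73, 2.65 and 3.30 CPM at 8 h. At 24 h CTRL libraries lay at 1.22, 1.60 and 1.26 CPM and C/EBPδ-inducible libraries at 2.85, 2.76 and 2.03 CPM. The 48 h values were 0.798, 1.70 and 1.58 CPM against 2.66, 2.46 and 2.80 CPM. The lines did not overlap at any time. PALLD was higher by 1.20 ± 0.27 on the log2 scale at 0 h (adjusted p = 0.000936), by 1.67 ± 0.22 at 8 h (adjusted p = 9.59e-05), by 0.88 ± 0.22 at 24 h (adjusted p = 0.00109) and by 0.96 ± 0.25 at 48 h (adjusted p = 0.00565). The 48 h call was lost, with adjusted p from 0.0108 to 0.0256, without any 1 of CTRL replicates 1 and 3 or C/EBPδ-inducible replicates 1, 2 and 3, and without CTRL replicate 1 the difference was 0.67.

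Without C/EBPδ-inducible replicate 3 at 8 h, the library that stood apart, all 7 members still passed between the lines at 8 h, with log2 fold changes of -2.45 for GSN, -0.70 for CAPG, -0.33 for FLII, -1.74 for AVIL, 1.28 for SVIL, 0.45 for MYPN and 1.65 for PALLD. In this comparison all 7 also passed when any other single library was left out, those of CTRL cells included.

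**Figure D2:**
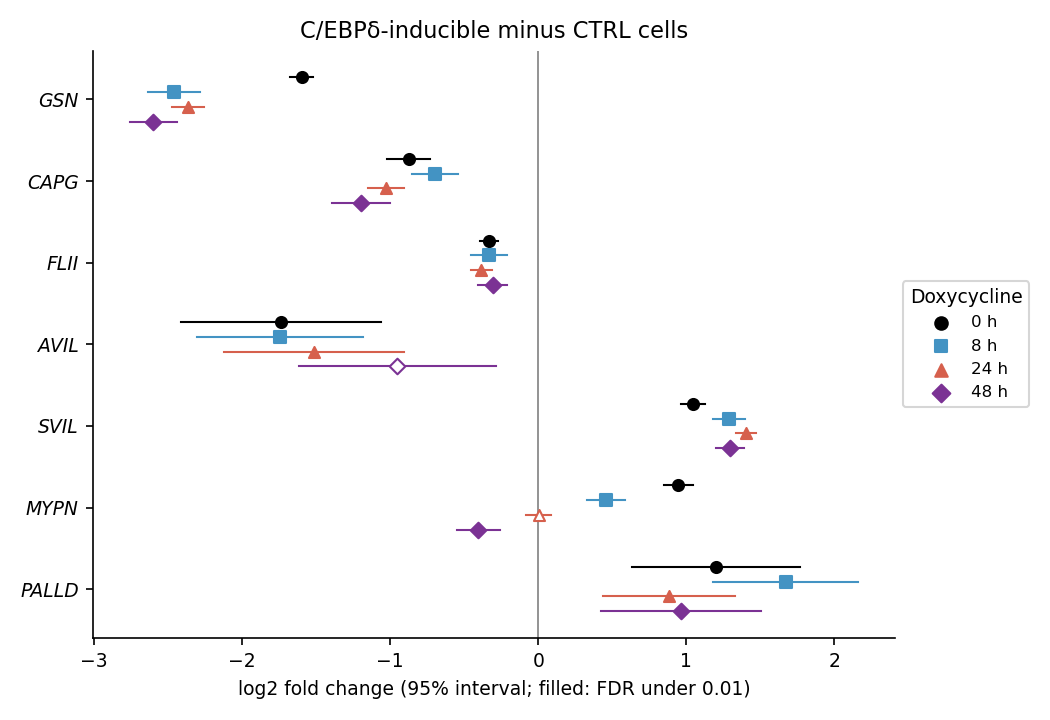
Log2 fold change of C/EBPδ-inducible over CTRL cells for the 7 tested members at 0, 8, 24 and 48 h, with 95% intervals, and filled symbols for an adjusted p under 0.01 (edgeR, 3 libraries a group). The open symbols are MYPN at 24 h and AVIL at 48 h, and MYPN is the member whose symbols lie on both sides of 0.

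SCIN (ENSG00000006747, chr7:12570577-12660182, + strand), scinderin, and VIL1 (ENSG00000127831, chr2:218419121-218453295, + strand), villin, the filament bundler of intestinal microvilli, were close to the limit of these libraries. SCIN had 46 counts over all 24 libraries, 15 of them in C/EBPδ-inducible replicate 1 at 24 h, where the other 2 replicates had 0. VIL1 had 115 counts, 31 of them in CTRL replicate 2 at 48 h, where the other 2 replicates had 3 and 0. A count of 3 or fewer was taken as the limit of a count of 0, and 20 of 24 SCIN libraries and 16 of 24 VIL1 libraries were at or below it. VIL1 also shares 44.2% of its exon bases with USP37 on the other strand, and USP37 had 907 to 1973 counts.

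GSN was lower and SVIL higher in the C/EBPδ-inducible libraries, and this pair was chosen for that reason. Their counts were set against each other within each library, a ratio that no scaling between libraries can alter. A separation of the lines in this ratio follows from that choice. In CTRL cells there were 0.649 ± 0.0262 SVIL counts for each GSN count at 0 h (SD, n = 3), 0.784 ± 0.0820 at 8 h, 0.753 ± 0.0176 at 24 h and 0.588 ± 0.0638 at 48 h. The C/EBPδ-inducible cells had 4.05 ± 0.104 at 0 h, 10.5 ± 0.370 at 8 h, 10.3 ± 1.12 at 24 h and 8.68 ± 0.197 at 48 h. GSN thus had more counts than SVIL in all 12 CTRL libraries and fewer in all 12 C/EBPδ-inducible libraries. The ratio shows unequal levels of the pair and does not say which gene moved.

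**Figure D3:**
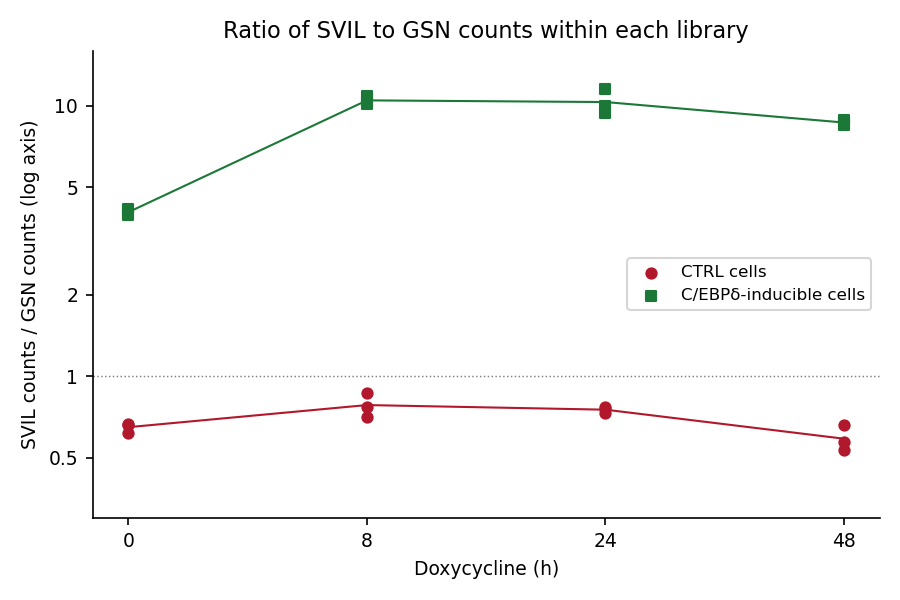
SVIL counts divided by GSN counts in each of the 24 libraries against hours of doxycycline, on a log axis, with lines through the group means and a dotted line at 1. CTRL libraries lie between 0.536 and 0.870, and C/EBPδ-inducible libraries at 3.94 to 4.15 at 0 h and 10.2 to 10.9 at 8 h.

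The second question was what happened within each line after doxycycline. The comparisons against 0 h in 1 line share their 0 h libraries. In C/EBPδ-inducible cells 4 of the 7 tested members passed at 8 h, where 30.5% of all genes passed: 1 rose (14.6% of all genes) and 3 fell (15.8%). At 24 h 4 passed (15.5%), of which 1 rose (7.33%) and 3 fell (8.14%). At 48 h 4 passed (38.7%), again 1 upward (19.1%) and 3 downward (19.5%). In CTRL cells 1 member passed at 8 h (1.70% of all genes), and it fell (0.793%; 0.905% of all genes rose). At 24 h 2 passed (6.06%), with 1 rise (2.81%) and 1 fall (3.25%), and at 48 h 1 passed (30.0%), a fall (14.7%; 15.2% of all genes rose).

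GSN fell in C/EBPδ-inducible cells to 19.6 ± 0.658 CPM at 8 h from 50.4 ± 0.978 CPM at 0 h (SD, n = 3), 2.57-fold lower (log2 fold change -1.36 ± 0.052, adjusted p = 1.59e-14). It was still lower than at 0 h by -1.003 ± 0.059 at 24 h (adjusted p = 4.01e-12) and by -0.80 ± 0.050 at 48 h (adjusted p = 7.19e-13). Between 8 and 24 h it rose by 0.36 ± 0.077 (adjusted p = 0.000882), a call that was lost without C/EBPδ-inducible replicate 3 at 24 h (0.29, adjusted p = 0.0113), and from 24 to 48 h the difference was 0.20 (95% interval 0.061 to 0.345, adjusted p = 0.0249), which passed with the replicate block (adjusted p = 0.00973). In CTRL cells GSN was lower at 8 h too, by -0.46 ± 0.069 (adjusted p = 0.00399), but this call was lost without any 1 of CTRL replicates 1, 2 and 3 at 0 h or replicate 2 at 8 h (adjusted p from 0.0223 to 0.0354), and with the replicate number as a block (adjusted p = 0.0149). At 24 h it was lower by -0.23 ± 0.036 (adjusted p = 0.00017) and at 48 h the difference was 0.22 (95% interval 0.070 to 0.364, adjusted p = 0.0207), which passed with no filter on low counts (adjusted p = 0.00103), in the model of all 24 libraries (adjusted p = 0.0057) and without CTRL replicate 2 at 48 h (0.30, adjusted p = 0.000428). From 24 to 48 h GSN rose in CTRL cells by 0.46 ± 0.064 (adjusted p = 0.000198). A single model of all 24 libraries did not call the CTRL change at 24 h (adjusted p = 0.0233). The CTRL difference from 8 to 24 h was 0.24 (95% interval 0.080 to 0.393, adjusted p = 0.0757), and it passed in that model (adjusted p = 0.00777) and without CTRL replicate 1 at 8 h (0.31, adjusted p = 0.00108).

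MYPN fell in C/EBPδ-inducible cells, from 109.8 ± 7.27 CPM at 0 h to 74.9 ± 0.699 at 8 h, 69.8 ± 1.21 at 24 h and 49.2 ± 4.27 at 48 h. Relative to 0 h it was lower by -0.56 ± 0.040 at 8 h (adjusted p = 4.35e-10), -0.65 ± 0.044 at 24 h (adjusted p = 5.25e-11) and -1.17 ± 0.053 at 48 h (adjusted p = 1.41e-15). The step from 8 to 24 h did not pass (-0.098, 95% interval -0.177 to -0.019, adjusted p = 0.0443), and the step from 24 to 48 h did (-0.53 ± 0.055, adjusted p = 2.83e-07). In CTRL cells it moved the other way: it rose by 0.30 ± 0.043 at 24 h (adjusted p = 9e-05), with -0.031 at 8 h (95% interval -0.168 to 0.107, adjusted p = 0.837) and 0.19 at 48 h (95% interval 0.075 to 0.310, adjusted p = 0.0121), a difference that passed with a filter at a mean of 1 CPM (adjusted p = 0.00934) and in the model of all 24 libraries (adjusted p = 0.00475). Its rise in CTRL cells from 8 to 24 h (0.33 ± 0.060, adjusted p = 0.00831) was lost with a filter at a mean of 1 CPM (adjusted p = 0.0104), with the replicate block (adjusted p = 0.0205) and without any 1 of CTRL replicate 2 at 8 h or replicates 1, 2 and 3 at 24 h (adjusted p from 0.0355 to 0.0723).

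SVIL in C/EBPδ-inducible cells did not pass at 8 h (0.00054, 95% interval -0.068 to 0.069, adjusted p = 0.993) and rose at 24 h (0.34 ± 0.033, adjusted p = 2.48e-08) and 48 h (0.30 ± 0.033, adjusted p = 2.78e-08). The rise came between 8 and 24 h, where the difference was 0.33 ± 0.034 (adjusted p = 1.84e-07). In CTRL cells SVIL passed in none of the 5 comparisons of times, with -0.20 at 8 h (95% interval -0.317 to -0.087, adjusted p = 0.0535), though the model of all 24 libraries called that difference (adjusted p = 3.97e-05). From 8 to 24 h the CTRL difference was 0.19 (95% interval 0.082 to 0.297, adjusted p = 0.0448), which passed in that model (adjusted p = 0.000112) and without CTRL replicate 1 at 8 h (adjusted p = 0.00863).

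FLII fell in both lines. In C/EBPδ-inducible cells it was lower than at 0 h by -0.15 ± 0.030 at 8 h (adjusted p = 0.000435), -0.16 ± 0.035 at 24 h (adjusted p = 0.00114) and -0.28 ± 0.032 at 48 h (adjusted p = 6.13e-08). The 8 h call was lost in the model of all 24 libraries (adjusted p = 0.0134). From 24 to 48 h the difference was -0.12 (95% interval -0.201 to -0.031, adjusted p = 0.0322), and it passed with the replicate block (adjusted p = 0.00494) and without C/EBPδ-inducible replicate 2 at 24 h (-0.16, adjusted p = 0.00693). In CTRL cells it was lower by -0.11 at 24 h, where it did not pass (95% interval -0.169 to -0.047, adjusted p = 0.0195) but passed without CTRL replicate 1 at 0 h (-0.13, adjusted p = 0.00358), and by -0.29 ± 0.043 at 48 h (adjusted p = 0.000182). From 24 to 48 h it fell in CTRL cells by -0.17 ± 0.038 (adjusted p = 0.00458), a call lost without any 1 of CTRL replicates 1, 2 and 3 at 24 h or replicate 3 at 48 h (adjusted p from 0.0146 to 0.0236) and with the replicate block (adjusted p = 0.0112).

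CAPG fell in C/EBPδ-inducible cells between 8 and 24 h by -0.31 ± 0.067 (adjusted p = 0.000841) and did not pass against 0 h at any time. In CTRL cells its differences at 48 h, 0.22 from 0 h (adjusted p = 0.0444) and 0.24 from 24 h (adjusted p = 0.0278), passed without CTRL replicate 2 at 48 h (0.31 and 0.32, adjusted p = 0.00219 and 0.00122). PALLD rose at 8 h in C/EBPδ-inducible cells by 0.75 ± 0.20 (adjusted p = 0.00411). That call was lost in DESeq2 (adjusted p = 0.0142) and without any 1 of C/EBPδ-inducible replicates 1 and 2 at 0 h or replicate 1 at 8 h (adjusted p from 0.0124 to 0.0381). In CTRL cells PALLD was 0.74 higher at 24 h and 0.71 higher at 48 h, neither of which passed (adjusted p = 0.108 and 0.115). AVIL passed in no comparison of times in either line. Without C/EBPδ-inducible replicate 3 at 8 h the changes at 8 h in that line were -1.35 for GSN, -0.56 for MYPN, -0.14 for FLII and 0.74 for PALLD, and from 8 to 24 h 0.34 for GSN, 0.33 for SVIL and -0.31 for CAPG, all of which still passed (adjusted p at most 0.00903). Of the successive steps, 3 members passed from 8 to 24 h in C/EBPδ-inducible cells (29.6% of all genes), 2 that rose (14.3%) and 1 that fell (15.2%), and 1 passed from 24 to 48 h (23.8%), which fell (12.1%; 11.7% of all genes rose). In CTRL cells 1 passed from 8 to 24 h (2.44%), which rose (1.07%; 1.38% of all genes fell), and 2 from 24 to 48 h (23.5%), 1 that rose (12.2%) and 1 that fell (11.3%).

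The third question was whether the change from 0 h differed between the lines. Of the 7 tested members, 2 passed this interaction term at 8 h, where 1.66% of all genes passed. These were GSN and MYPN, both lower (0.770% of all genes were lower and 0.887% higher). At 24 h 3 passed (5.84%), GSN and MYPN lower (2.98%) and SVIL higher (2.86%), and at 48 h 2 passed (5.54%), GSN and MYPN, both lower (2.72%; 2.83% of all genes were higher). The 3 times share the 0 h libraries of both lines and are not independent of each other.

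For GSN, the change in C/EBPδ-inducible cells was below that in CTRL cells by -0.88 ± 0.087 on the log2 scale at 8 h (adjusted p = 3.13e-05), -0.76 ± 0.070 at 24 h (adjusted p = 2.06e-08) and -1.02 ± 0.084 at 48 h (adjusted p = 1.26e-07). For MYPN the terms were -0.50 ± 0.076 at 8 h (adjusted p = 0.00109), -0.94 ± 0.063 at 24 h (adjusted p = 1.01e-10) and -1.37 ± 0.084 at 48 h (adjusted p = 2.83e-09). These 6 calls were kept when any single library was left out and in every other fit that was run. Without C/EBPδ-inducible replicate 3 at 8 h the 8 h terms were -0.85 for GSN (adjusted p = 0.000407) and -0.50 for MYPN (adjusted p = 0.00537). Over all genes the number called at 8 h depended on the CTRL libraries at 8 h. With all libraries 144 genes were higher and 125 lower, and without CTRL replicate 3 at 8 h 705 were higher and 491 lower. Leaving out 1 library gave 0.788% to 7.19% of all genes called at 8 h. The GSN term was smaller in size at 24 h than at 8 h and larger at 48 h, while the MYPN term was larger at each later time. In 95% intervals, MYPN went from -0.66 to -0.34 at 8 h to -1.55 to -1.20 at 48 h, which do not overlap, and GSN from -1.06 to -0.69 at 8 h to -1.20 to -0.85 at 48 h, which do. These intervals come from separate fits that share the 0 h libraries, and the difference between the terms of 2 times was not tested.

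SVIL passed at 24 h (0.36 ± 0.049, adjusted p = 1.09e-05), with terms of 0.23 at 8 h (95% interval 0.106 to 0.351, adjusted p = 0.0315) and 0.23 at 48 h (95% interval 0.112 to 0.343, adjusted p = 0.0105). The 8 h term passed in the model of all 24 libraries (adjusted p = 0.00257). The 48 h term passed in DESeq2 (adjusted p = 0.00346), without a filter on low counts (adjusted p = 0.00907), with a filter at a mean of 1 CPM (adjusted p = 0.00394) and in the model of all 24 libraries (adjusted p = 0.0008). It also passed without C/EBPδ-inducible replicate 1 at 0 h and without CTRL replicate 1 at 48 h. FLII, which fell in both lines, had terms near 0 at all 3 times, the one at 48 h being 0.0046 with a 95% interval of -0.101 to 0.110. CAPG had its largest term at 48 h (-0.34, 95% interval -0.617 to -0.072, adjusted p = 0.107). The terms of AVIL and PALLD had wide intervals, at 24 h -0.71 to 1.17 and -1.03 to 0.41. At the depth of these genes such intervals hold large differences between the lines as well as small ones. At 48 h the AVIL term of 0.76 did not pass (95% interval -0.23 to 1.75, adjusted p = 0.363).

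**Figure D4:**
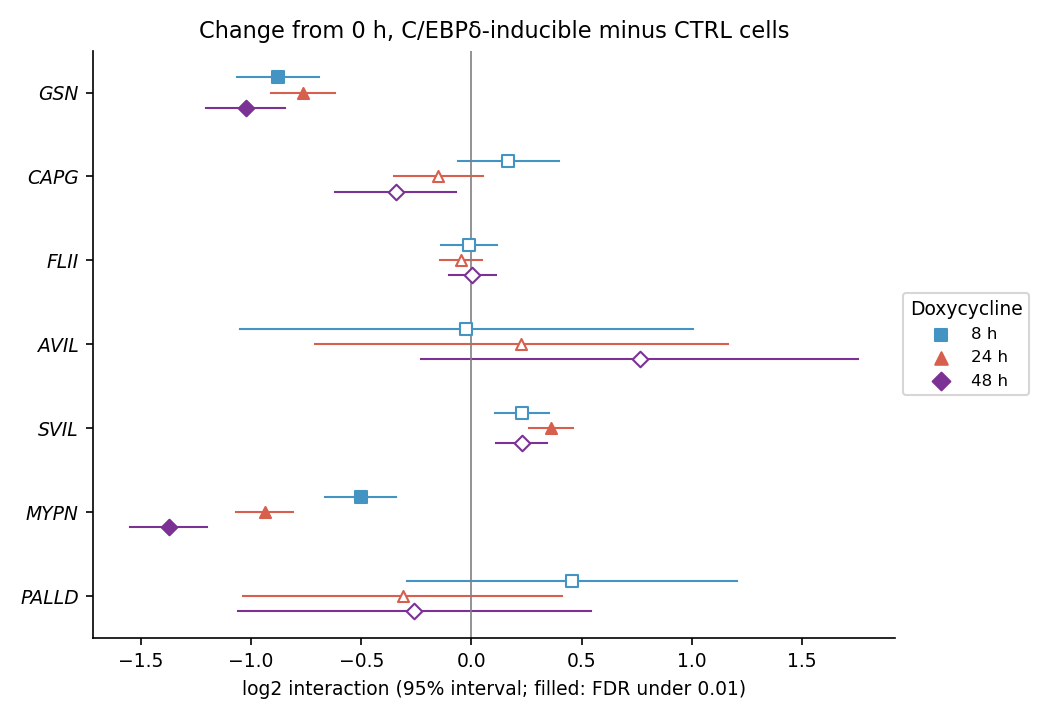
Log2 interaction of line and time for the 7 tested members at 8, 24 and 48 h, with 95% intervals. It is the change from 0 h in C/EBPδ-inducible cells minus that in CTRL cells. Filled symbols mark an adjusted p under 0.01 (edgeR, 3 libraries a group). GSN and MYPN lie left of 0 at all 3 times, SVIL lies right of 0 and is filled at 24 h, and the intervals of AVIL and PALLD span 0.

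Other genes of the actin cytoskeleton were described by 3 lists for comparison. Of 26 genes of actin turnover, all tested, the interaction at 24 h was higher for 3 (2.86% of all genes) and lower for 3 (2.98%), with a list median of -0.036 beside a median of -0.00094 over all genes. The 3 that were higher were TMSB4X, which sequesters actin monomers (0.34 ± 0.045), PFN1, profilin (0.21 ± 0.030), and WDR1, a cofactor of cofilin (0.18 ± 0.035). The 3 that were lower were CAP2 (-0.37 ± 0.082), DSTN, destrin, which depolymerizes filaments (-0.33 ± 0.044), and SSH2, a cofilin phosphatase (-0.32 ± 0.053). GSN and MYPN thus had terms beyond those of every gene called in this list.

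Of 23 crosslinkers and partners, 20 were tested, 1 was higher (2.86% of all genes) and 7 were lower (2.98%) at 24 h, with a list median of -0.053 beside -0.00094 over all genes. The higher gene was ACTN1, an α-actinin that binds palladin (0.22 ± 0.041), and the largest terms among the lower ones were those of EZR, ezrin (-0.49 ± 0.036), LASP1 (-0.35 ± 0.036) and PLS3, a plastin (-0.27 ± 0.052). Of 21 actins and targets of serum response factor, 17 were tested, 3 were higher and 0 lower by the same test, with a list median of 0.057: MYL9, a myosin light chain (0.46 ± 0.066), TPM4, a tropomyosin (0.33 ± 0.038), and CNN2, a calponin (0.25 ± 0.039). At 8 h the interaction was called for 0 of the 26 turnover genes, 2 of the 20 crosslinkers (1 higher, 1 lower) and 0 of the 17 actins and targets, beside 1.66% of all genes. At 48 h it was called for 4 of 26 (4 higher, 0 lower), 3 of 20 (2 higher, 1 lower) and 7 of 18 (6 higher, 1 lower). Of all genes 5.54% were called at 48 h, 2.83% higher and 2.72% lower. The adjusted p of the named genes ran from 6.56e-10 to 0.00304.

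**Figure D5:**
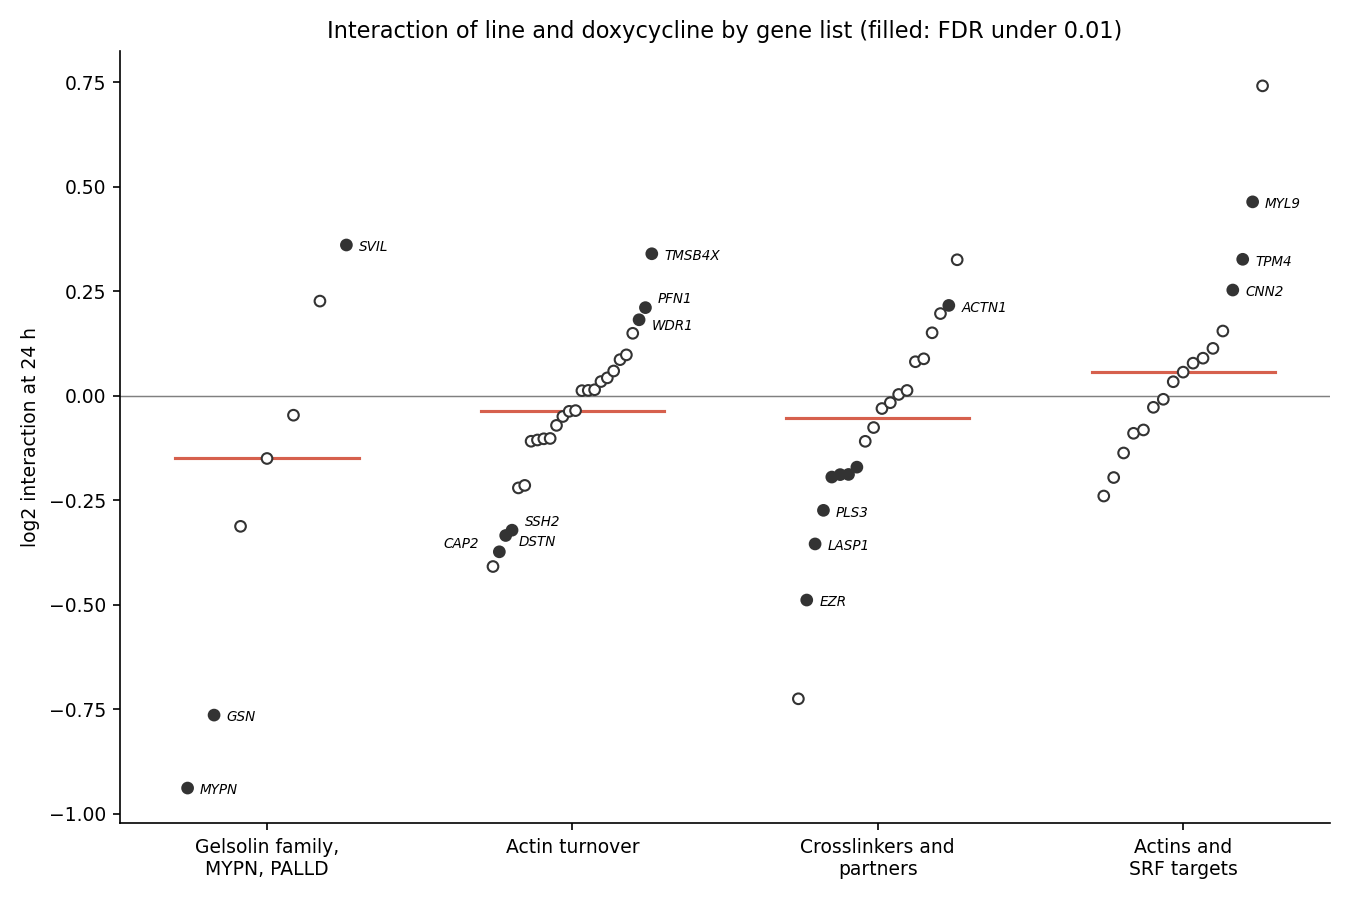
Log2 interaction at 24 h for each tested gene of the family and of the 3 lists of actin genes, sorted within a list, with filled symbols for an adjusted p under 0.01 and a red line at the median of the list. Named are called genes of the family and up to 3 called genes with the largest terms in each direction of a list, and MYPN and GSN lie at -0.94 and -0.76.

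The genes whose course over the 8 groups was most like that of a member were found by the root mean square difference of log2 group means, each course centred on its own mean, among 13711 genes. For GSN these were BRINP3 (0.208), GJB5, a connexin (0.244), NRROS (0.247), SFXN3 (0.293) and LMNTD1 (0.301), beside a median of 1.20 over all genes. For MYPN they were LARP6 (0.183), TGFBR3, a co-receptor for TGFβ (0.193), ANKRD13C (0.199), CMTM1 (0.202) and PRDM8 (0.204), beside a median of 0.377. Unlike MYPN, the first 3 were still higher in C/EBPδ-inducible than in CTRL cells at 48 h. Their geometric means were 49.5 against 44.4 CPM, 91.5 against 85.0 and 48.0 against 45.0. CMTM1 (2.75 against 3.05) and PRDM8 (105 against 108) were lower there. This likeness is a description over 8 group means, which are dominated for GSN by the difference between the lines.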

How the data were processed

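The authors sequenced rRNA-depleted total RNA as 50-base reads, trimmed them with Trimmomatic, aligned them with HISAT2 to GRCh38 and counted reads per Ensembl gene with HTSeq, and the deposited counts are not normalized. Tool versions differ between the methods and the submitters' processing notes, and the strand setting is not given in the sources used here. The matrix held 24 libraries, and 0 columns were left unmapped. Gene symbols, lengths and positions came from GENCODE 44, which matched 56558 of 60675 identifiers. The methods name Ensembl 84, so the exon lengths and shared exon bases used here may differ from those the reads were counted over. Promoter sequences came from RefSeq.

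The counts were fitted for each comparison over all genes passing filterByExpr, with the libraries of that comparison only, by edgeR 4.0.16 (R 4.3.3): TMM scaling, glmQLFit and glmQLFTest, two-sided, Benjamini-Hochberg adjustment, and a call at an adjusted p under 0.01. The standard error is the log2 fold change divided by the square root of its F statistic, and intervals are at 95%. Alternatives were DESeq2 1.42.0, limma-trend 3.58.1, other filters on low counts, a block for replicate number, a single model of all 24 libraries and leaving out each library. Tested on simulated data with 200 changed genes, the fit recovered 66% of 2-fold and 66% of 1.5-fold changes in the interaction at 24 h (16224 genes), with 3 false calls. Between the lines at 24 h it recovered 80% and 65%, with 8 false calls. In C/EBPδ-inducible cells at 24 h against 0 h it recovered 81% and 68%, with 1 false call. The 2-fold figures required the right direction and the 1.5-fold figures did not. Genes not changed had equal simulated means in all groups, unlike the real lines.

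Replicates were wells seeded in parallel, so p-values measure the spread between wells, and no sequencing batch is given in the labels. The smallest p that an exact permutation test of 3 against 3 can give is 0.1, so none was used. Replicate pairs differed beyond counting noise, with a chi-square per gene of 1.63 to 14.9. Same-numbered libraries deviated together in the comparison of CTRL 24 h with 0 h (correlations of 0.183 to 0.272 over genes) by the replicate numbers of the labels, and with the block the GSN and MYPN calls there had adjusted p of 0.000245 and 0.000106. The members, the lists of actin genes and the tests were chosen with earlier results of these data known. All 9 members are named. From each list, up to 3 called genes with the largest interaction at 24 h in each direction are named, and for GSN and MYPN the 5 genes of the most similar course among those with a mean of at least 1 CPM (log2 with 0.5 added).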

Additional observations from a re-analysis of the deposited data

Results flagged for a closer look

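Of the members, 3 changed from 0 h by different amounts in the 2 lines, by the interaction term of edgeR's quasi-likelihood test. For GSN the log2 difference of the changes (C/EBPδ-inducible minus CTRL) was -0.88 at 8 h, -0.76 at 24 h and -1.02 at 48 h. For MYPN it was -0.50 at 8 h, -0.94 at 24 h and -1.37 at 48 h, with opposite calls in the lines at 24 h, a fall in C/EBPδ-inducible cells and a rise in CTRL cells. For SVIL it was 0.36 at 24 h. No single member value was searched for a library far from its group, since groups of 3 are too small for that test. Over all genes C/EBPδ-inducible replicate 3 at 8 h stood apart (chi-square per gene of 11 and 11.1, against 2.22 for the other pair). CTRL replicates 1 and 3 at 8 h differed by 14.9, the largest value of any pair.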

How the results depend on the processing

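Counts of called members changed as follows, with the share of all genes called in the same fit in brackets, and the cause was not tested. For fits that left out no library, only changes of more than 1.5 times are listed. The passes of the SVIL interaction at 8 and 48 h described above changed the counts by no more than that and are not listed. In a single model of all 24 libraries, CTRL cells had 2 called members at 8 h (7.22%), 1 at 24 h (3.42%) and 3 at 48 h (33.2%) against 0 h, and 3 from 8 to 24 h (8.07%). With no filter on low counts, 2 members were called in CTRL cells at 48 h (17.2%) and 2 in C/EBPδ-inducible cells from 24 to 48 h (12.5%). In the latter the added member was SCIN, with 15 counts in 1 library. That fit also called VIL1 at 48 h between the lines and in C/EBPδ-inducible cells at 8 h, and SCIN from 8 to 24 h. A mean of at least 1 CPM gave 2 at 48 h (33.0%) and 0 from 8 to 24 h (2.61%) in CTRL cells. A replicate block left CTRL cells with 0 at 8 h (0.570%), 0 from 8 to 24 h (1.59%) and 1 from 24 to 48 h (20.7%), and C/EBPδ-inducible cells with 3 from 24 to 48 h (27.6%). The block changed no other count by over 1.5 times, and apart from CTRL 24 h against 0 h the samples share only a number. Leaving out 1 library gave 0 to 1 called members in CTRL cells at 8 h (0.586% to 5.02%), 2 to 3 at 24 h (3.25% to 7.05%) and 1 to 3 at 48 h (19.8% to 33.9%), 0 to 3 from 8 to 24 h (0.470% to 7.64%) and 1 to 3 from 24 to 48 h (14.0% to 30.9%). The C/EBPδ-inducible cells had 3 to 4 at 8 h (24.8% to 27.6%), 2 to 3 from 8 to 24 h (22.3% to 26.8%) and 1 to 2 from 24 to 48 h (15.3% to 22.5%), and between the lines there were 5 to 6 at 48 h (29.7% to 41.1%). For the interaction at 48 h there were 2 to 3 (3.74% to 7.09%). None of the 56 called log2 values changed sign. Over the alternatives other than leaving out a library they stayed called 329 times and lost the call 7 times, and on leaving out a library 357 and 21 times. The 63 values not called newly passed 15 and 9 times and changed sign 9 and 43 times, none of these passing. The 9 were MYPN between the lines at 24 h with no filter (-0.015), CAPG in CTRL cells at 24 h against 0 h with no filter (0.0013) and from 8 to 24 h in DESeq2 (0.0011), with no filter (0.0038), in the model of all libraries (0.016) and in limma-trend (0.00020), FLII there with a mean of 1 CPM (-0.010), and at 8 h the interactions of AVIL in limma-trend (0.015) and FLII in DESeq2 (0.0051). Leaving out 1 library gave -0.023 to 0.019 for MYPN between the lines at 24 h. In CTRL cells it gave -0.059 to 0.031 for CAPG at 8 h, -0.33 to 0.092 for AVIL, -0.041 to 0.0028 for SVIL and -0.045 to 0.021 for CAPG at 24 h, -0.039 to 0.053 for CAPG and -0.028 to 0.063 for FLII from 8 to 24 h, and -0.21 to 0.24 for PALLD from 24 to 48 h. In C/EBPδ-inducible cells it gave -0.016 to 0.037 for SVIL at 8 h, -0.093 to 0.42 for AVIL at 24 h and -0.015 to 0.50 at 48 h, -0.061 to 0.012 for FLII from 8 to 24 h, and -0.046 to 0.17 for AVIL, -0.019 to 0.10 for CAPG and -0.12 to 0.12 for PALLD from 24 to 48 h. For the interaction it gave -0.28 to 0.34 for AVIL and -0.037 to 0.039 for FLII at 8 h, -0.021 to 0.59 for AVIL at 24 h and -0.016 to 0.034 for FLII at 48 h. AVIL and PALLD had wide intervals at their depth, and SCIN and VIL1 had too few counts for the filter.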

Other observations

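The other actin genes moved with time within the C/EBPδ-inducible line as follows (edgeR's quasi-likelihood test, adjusted p under 0.01, medians on the log2 scale). Of the 17 tested actins and targets of serum response factor, 10 fell (15.8% of all genes) and 2 rose (14.6%) at 8 h against 0 h, with a median of -0.21 beside -0.0064 over all genes. From 8 to 24 h 8 rose (14.3%) and 3 fell (15.2%), with a median of 0.082 beside 0.0019. Of the 20 tested crosslinkers and partners, 12 fell (8.14% of all genes) and 2 rose (7.33%) at 24 h against 0 h, with a median of -0.21 beside 0.0036 over all genes. Of the 26 genes of actin turnover, 8 rose and 4 fell at 8 h, with a median of 0.028, and 13 fell and 6 rose from 8 to 24 h, with a median of -0.17, beside the shares and medians over all genes just given for these times. In CTRL cells 10 of the 17 actins and targets fell (14.7% of all genes) and 3 rose (15.2%) at 48 h, with a median of -0.18 beside 0.0088 over all genes, while the 8 h comparison called 1 gene in each of the 3 lists (1.70% of all genes). The interaction at 8 h, which compares the changes of the 2 lines, was called for 0 of the 17 actins and targets. It was called for 2 of the 20 crosslinkers and 0 of the 26 turnover genes (1.66% of all genes). Whether the courses of the 3 lists differ from each other was not tested.

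Between MYPN and PALLD, which encode related scaffolds, the counts were far apart in every library. In CTRL cells there were 75.1 ± 27.2 MYPN counts for each PALLD count at 0 h (SD, n = 3) and 54.5 ± 9.42 at 8 h. The CTRL ratio was 51.9 ± 8.77 at 24 h and 53.6 ± 24.4 at 48 h. PALLD had few counts in CTRL cells, and 1 library at 0 h, with 9 PALLD counts, had a ratio of 106. The C/EBPδ-inducible cells had 58.3 ± 6.06 at 0 h, 23.6 ± 3.93 at 8 h, 27.99 ± 5.02 at 24 h and 18.6 ± 1.14 at 48 h. All 9 ratios after doxycycline in C/EBPδ-inducible cells lay below the 3 ratios at 0 h.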
